A study of Homo sapiens with 20 samples.

Results

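Progenitor transcription factors are the regulators that hold blood progenitors in a growing, uncommitted state, and red cell maturation is known for their loss as GATA1 and its partners take over. The 10 genes described here were chosen by symbol: MYB, MYC, GATA2, SPI1, RUNX1, FLI1, ERG, IKZF1, LYL1 and MEIS1, 10 of 46425 genes in the tables. Counts and TPM (transcript abundance scaled for transcript length and library size) of all RefSeq transcripts of a symbol were summed in each library.

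HUDEP-2 cells, here with the WT genotype, are immature red cell precursors that were derived from cord blood and immortalized with papillomavirus E6 and E7 under a doxycycline-inducible promoter. They were kept in StemSpan SFEM with erythropoietin (EPO), stem cell factor (SCF), dexamethasone, doxycycline and antibiotics, and sampled there as day 0, the proerythroblast stage. The other groups were days 1 to 8 and day 12 in IMDM with holo-transferrin, AB human serum, heparin, insulin, L-glutamine, EPO, SCF, doxycycline and antibiotics, with no dexamethasone listed, from which SCF was left out on day 6 and doxycycline on day 8. The study places days 4 to 6 at the basophilic, day 8 at the polychromatic and day 12 at the orthochromatic and reticulocyte stage. Each of the 10 days had 2 libraries of 52131713 to 70358198 counts. The columns name a day and no replicate. There are 3 sets of day 0 columns for 2 day 0 samples; which are the deposited samples is not given in the sources used here, and each comparison with day 0 rests on the pair taken. The libraries of days 0 to 6, days 7 and 8, and day 12 stand in separate tables, and the second library of each day stands in a table of all days. Pairs of values below give the separate-day library first and the all-days library second. The study calls the libraries it compared biological replicates; the labels do not say which cultures they came from, and p-values measure the spread between these libraries. All samples are the same line. A culture without SCF withdrawal at the same day was not analysed here, so withdrawal and time cannot be told apart.

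MYB, the ERG, FLI1 and SPI1 proteins of the ETS family, RUNX1, MEIS1 and LYL1 bind DNA as sequence-specific factors of stem and progenitor cells, and LYL1 is a basic helix-loop-helix relative of TAL1. GATA2 occupies GATA motifs in progenitors before GATA1 replaces it. MYC pairs with MAX at E-boxes and drives growth, IKZF1 is the zinc finger factor Ikaros, and SPI1 (PU.1) drives myeloid fates and opposes GATA1.

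By marker RNA the cells were mainly erythroid, with most of the stem cell and lymphoid markers at 0 on day 0. Mast cell and basophil markers, described below, summed to 2132 and 1152 TPM on day 0. The 13 erythroid markers summed to 39034 and 42862 TPM on day 0 and to 595482 and 628344 TPM on day 12, with HBB, a beta-type globin, the most abundant and none at 0. Of the 10 stem cell markers 6 and 7 were at 0 on day 0, among them PROM1, MECOM and FLT3, and CD34 stood at 0.0321 and 0 TPM. Their sum of 48.0 and 40.3 TPM was mostly MLLT3 (45.0 and 34.9 TPM). Of the 10 lymphoid markers 8 were at 0 in each day 0 library, and CD79A was the most abundant at 0.378 and 0.243 TPM.

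Promoter sequence was taken from RefSeq (GRCh38.p14, the hg38 assembly of the files), which held an entry for 7 of the 10 genes and none used here for SPI1, FLI1 and MYC. The 250 bases before the start are shown for GATA2, whose transcripts from 2 starts were estimated at different shares over the days, for MYB, which fell most from day 8 to day 12, and for LYL1, which stayed above 50% of day 0. GATA2 lies at chr3:128479422-128493201, MYB at chr6:135181308-135219172 and LYL1 at chr19:13099033-13102858. The windows are chr3:128493202-128493451 on the minus strand (GATA2, distal start), chr3:128488531-128488780 on the minus strand (GATA2, proximal start), chr6:135181058-135181307 on the plus strand (MYB) and chr19:13102859-13103108 on the minus strand (LYL1). Capitals mark CANNTG (the E-box) in GATA2, GGCGGGA (an E2F-type motif) in MYB and GATAA (the GATA motif) in LYL1, each searched on both strands.
GATA2 distal: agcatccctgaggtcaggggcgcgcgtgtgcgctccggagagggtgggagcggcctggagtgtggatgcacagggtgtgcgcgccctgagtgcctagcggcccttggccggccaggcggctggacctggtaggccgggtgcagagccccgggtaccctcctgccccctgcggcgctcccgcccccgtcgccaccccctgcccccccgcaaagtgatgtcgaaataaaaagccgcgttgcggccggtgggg
GATA2 proximal: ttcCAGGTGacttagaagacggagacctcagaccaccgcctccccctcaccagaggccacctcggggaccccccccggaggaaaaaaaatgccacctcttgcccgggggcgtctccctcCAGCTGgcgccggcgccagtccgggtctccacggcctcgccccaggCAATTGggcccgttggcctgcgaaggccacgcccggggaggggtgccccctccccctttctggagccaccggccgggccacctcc
MYB: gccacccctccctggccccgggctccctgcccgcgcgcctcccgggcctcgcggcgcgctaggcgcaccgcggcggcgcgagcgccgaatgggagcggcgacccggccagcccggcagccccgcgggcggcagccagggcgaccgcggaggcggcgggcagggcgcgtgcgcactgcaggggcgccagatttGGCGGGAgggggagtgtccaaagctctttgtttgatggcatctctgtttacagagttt
LYL1: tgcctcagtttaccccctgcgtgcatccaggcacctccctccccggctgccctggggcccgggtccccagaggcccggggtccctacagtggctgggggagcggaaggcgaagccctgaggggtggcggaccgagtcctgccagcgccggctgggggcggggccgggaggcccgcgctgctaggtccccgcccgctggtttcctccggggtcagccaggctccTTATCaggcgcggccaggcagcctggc

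The proximal GATA2 window held 3 CANNTG and the distal window 0, where 61.8% of 35116 promoter windows of 250 bases held at least 1. The MYB window held 1 GGCGGGA, 58 to 52 bases before the start, and the distal GATA2 window also held 1, on the other strand and left in lower case; 13.5% of windows held it. LYL1 held 1 GATAA, written TTATC on the strand shown, 27 to 23 bases before the start, against 20.4% of windows. CACGTG, a form of CANNTG that MYC binds, was in none of the windows shown and in 6.34% of all, and GGAAGT, an ETS-type motif, was in none shown and in 19.5%. These are matches of letters and not measured binding.

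Of the 10 genes, 3 were silent or nearly so. FLI1 and MEIS1 had 0 counts in all 20 libraries, which allows up to 3 counts, or 0.0426 to 0.0575 CPM (counts relative to the total of a library), in each; such floors cover counting error only. ERG had at most 13 counts in a library, on day 0 (0 and 13) and day 1 (5 and 13), and 0 from day 5 on. The other 7 were measured on each day, at 0.126 TPM or more.

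With a coefficient for each day, 8 genes passed the filter on low counts (FLI1 and MEIS1 did not), and 7 of these 8 changed over the days at an adjusted p under 0.05 (edgeR quasi-likelihood test, Benjamini-Hochberg over 16784 genes), where 66% of all genes did. A gene that passes this threshold is said below to be called. The exception was ERG. The adjusted p of the 7 ran from 2.02e-07 for SPI1 to 0.000279 for LYL1. LYL1 was not called on log2(TPM + 1) (limma adjusted p = 0.927).

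**Figure D1:**
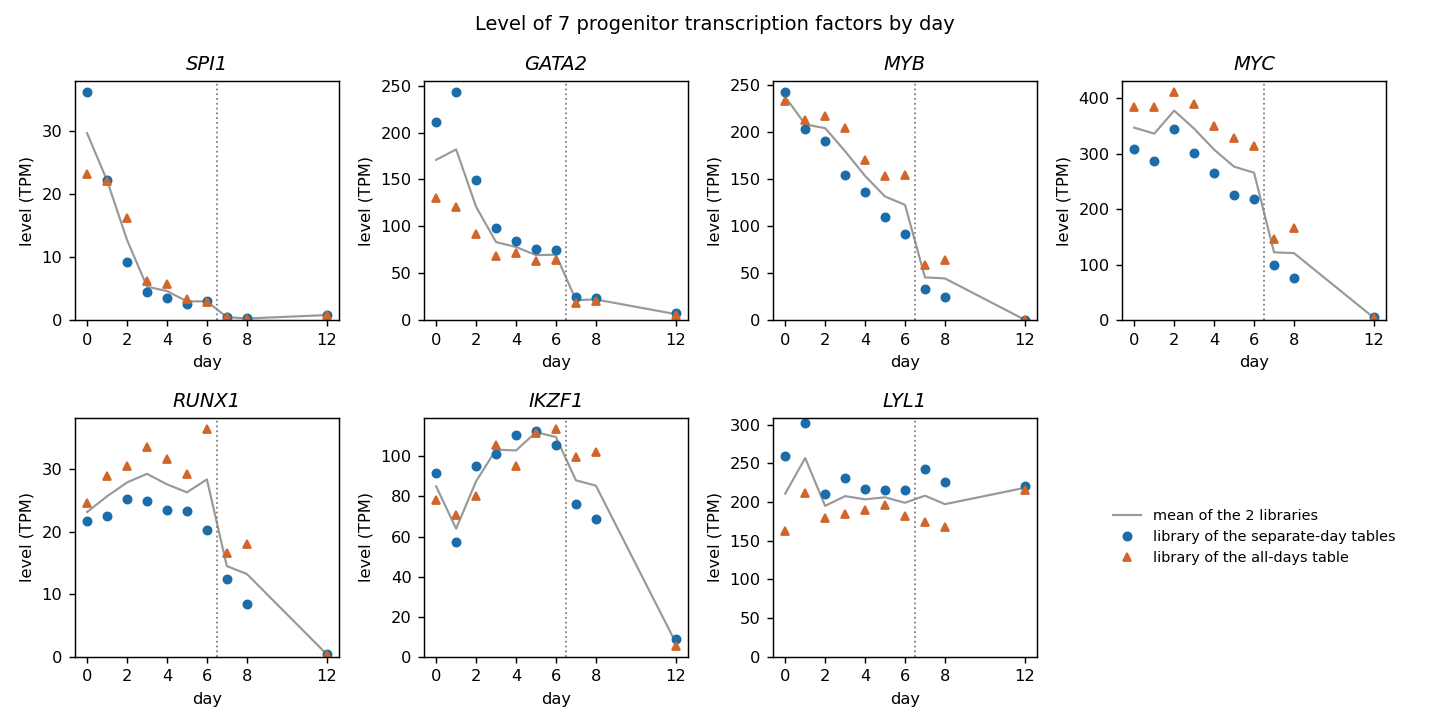
Level in TPM (y, linear from 0, own scale in each panel) by day (x) of the 7 measured genes; circles are libraries of the separate-day tables, triangles those of the all-days table, the line their mean, and the dotted line the step from day 6 to day 7. SPI1 was at 36.0 and 23.1 TPM on day 0 and under 0.5 TPM on days 7 and 8, while LYL1 stood at 259 and 163 TPM on day 0 and 221 and 216 TPM on day 12.

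SPI1, at chr11:47354859-47395640, was the first of the 7 measured genes to stay under 50% of its day 0 mean. That cut was chosen after values had been seen. By day 8 SPI1 had fallen most of the 7. Its level was 36.0 and 23.1 TPM on day 0, 22.2 and 22.02 on day 1, 9.22 and 16.2 on day 2, 4.402 and 6.19 on day 3, and 3.47 and 5.72 on day 4. It then stood at 2.59 and 3.34 TPM on day 5, 3.00 and 2.94 on day 6, 0.464 and 0.457 on day 7, 0.381 and 0.126 on day 8, and 0.840 and 0.743 on day 12. Both libraries of day 4 lay below both of day 0, and both of day 7 below both of day 6. From day 0 to day 4 the log2 fold change was -2.54 (SE 0.37, n = 2 libraries a day, edgeR adjusted p = 0.00155), with -3.24 in the separate-day and -1.81 in the all-days libraries. It was the only member called there, 1 of 8 tested (median log2 fold change -0.26), where 5.28% of all genes were called (median -0.01), 2.35% lower and 2.93% higher. SPI1 was also the only member called from day 6 to day 7, the first day after SCF was left out, by -2.30 (SE 0.39, edgeR adjusted p = 0.00831; -2.26 and -2.17 within the table sets), where 2.57% of all genes were called and 1.69% were lower. By day 8 it had 22 and 11 counts, and the change from day 0 was -5.75 (SE 0.44, edgeR adjusted p = 1.4e-06; -5.59 and -5.68).

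GATA2 fell from day 0 to day 8 and from day 4 to day 8. Its level was 211 and 131 TPM on day 0, 243 and 121 on day 1, 150 and 92.1 on day 2, 97.8 and 68.7 on day 3, and 84.4 and 71.6 on day 4. It was 75.4 and 63.2 TPM on day 5, 75.0 and 64.4 on day 6, 24.3 and 18.4 on day 7, 23.1 and 20.8 on day 8, and 7.33 and 5.39 on day 12. The libraries of days 3 to 6 lay below those of day 0, and those of days 7 and 8 below all earlier ones. The change to day 4 missed the threshold at -0.99 (SE 0.38, edgeR adjusted p = 0.172; -1.22 and -0.67 within the table sets), but passed it with a block for the table set, at -0.94 (edgeR adjusted p = 0.00751), where 14.3% of all genes were called. From day 4 to day 8 GATA2 fell by 1.33 on the log2 scale (SE 0.39, edgeR adjusted p = 0.0322), by -1.23 in the separate-day and -1.44 in the all-days libraries. Over the whole span to day 8 the change was -2.32 (SE 0.40, edgeR adjusted p = 0.000623; -2.45 and -2.12).

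Mast cell tryptase mRNAs were also lower on day 8 than on day 0. Of the 10 mast cell and basophil markers TPSB2 and TPSAB1, the mast cell tryptases, were the most abundant, at 1114 and 614 TPM and at 1009 and 527 TPM on day 0. The list summed to 2132 and 1152 TPM on day 0, 2880 and 1091 on day 1, 412 and 260 on day 4, 8.10 and 1.60 on day 8 and 1.44 and 0.305 on day 12. From day 0 to day 1 SPI1 went from 36.0 and 23.1 to 22.2 and 22.02 TPM. GATA2 went from 211 and 131 to 243 and 121 TPM over the same step. SPI1 had 22 and 11 counts on day 8 and 54 and 56 on day 12. On day 0 CMA1 and CLC were at 0, FCER1A at 0.240 and 0 TPM, and CPA3 at 0.815 and 6.04 TPM. MS4A2, the beta chain of the IgE receptor, stood at 8.00 and 3.66 TPM on day 0 (816 and 393 counts) and at 0 on day 8, at least 154-fold lower against 3 counts a library. From day 0 to day 8, where 19.4% of all genes were lower, 5 of the 6 that could be tested fell, TPSB2 by 7.49 on the log2 scale (SE 1.16, edgeR adjusted p = 0.000305). The 12 myeloid markers summed to 24.3 and 37.4 TPM on day 0, nearly all FCGR1A (21.4 and 35.6 TPM). On day 8 they summed to 67.0 and 50.8 TPM, of which FCGR1A was 66.2 and 50.1 TPM. The other 11 were each under 1 TPM on day 8. Of 6 myeloid markers tested from day 0 to day 8, 1 was called higher and 1 lower. Of all genes 17.7% were higher and 19.4% lower. The 10 megakaryocyte markers summed to 70.5 and 13.2 TPM on day 0, mostly ITGA2B (68.9 and 10.7 TPM), with 6 and 7 at 0, and to 9.99 and 6.29 TPM on day 8. ITGA2B, a platelet integrin chain, fell to 0.292 and 0.140 TPM on day 8 (-6.84, SE 1.81, edgeR adjusted p = 0.00997), while TUBB1, a platelet tubulin, rose from 1.44 and 2.38 to 9.57 and 5.95 TPM (2.69, SE 0.63, edgeR adjusted p = 0.00497). The part of these cells or transcripts in the levels of SPI1 and GATA2 was not tested. In bulk RNA, fewer cells of a type and less RNA per cell cannot be told apart.

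The mean TPM of MYB, needed for progenitor growth, was 51.6% of day 0 on day 6, and that of MYC was 76.6%. MYB stood at 242 and 233 TPM on day 0, 203 and 213 on day 1, 191 and 218 on day 2, 155 and 205 on day 3, and 136 and 171 on day 4. It stood at 110 and 154 TPM on day 5, 91.3 and 154 on day 6, 32.7 and 58.2 on day 7, 24.4 and 64.3 on day 8, and 0.401 and 0.209 on day 12. Both libraries of days 7 and 8 lay below every library of days 0 to 6, and the 2 libraries of day 8 differed by the largest ratio. From day 4 to day 8 MYB fell by 1.41 on the log2 scale (SE 0.34, edgeR adjusted p = 0.0139), by -1.92 and -1.10 within the table sets. From day 0 to day 8 it fell by 1.90 (SE 0.34, edgeR adjusted p = 0.000887; -2.65 and -1.36), and the change to day 4 of -0.49 was not called (edgeR adjusted p = 0.498).

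MYC stood at 309 and 385 TPM on day 0, 288 and 386 on day 1, 345 and 411 on day 2, 302 and 389 on day 3, and 266 and 350 on day 4. It stood at 225 and 329 TPM on day 5, 218 and 314 on day 6, 98.7 and 146 on day 7, 75.7 and 166 on day 8, and 4.82 and 3.47 on day 12. All libraries of days 7 and 8 lay below all earlier ones. MYC fell by 0.93 on the log2 scale from day 4 to day 8 (SE 0.26, edgeR adjusted p = 0.0295; -1.18 and -0.77 within the table sets) and by 0.96 from day 0 to day 8 (SE 0.26, edgeR adjusted p = 0.0123; -1.30 and -0.73). Its change to day 4 was -0.03 (SE 0.26, edgeR adjusted p = 0.994).

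RUNX1, at chr21:34787801-35049334, and IKZF1, at chr7:50303453-50405101, stayed above 50% of their day 0 mean TPM to day 8. For RUNX1 this did not hold in the separate-day library taken alone, at 8.42 TPM on day 8 against 21.7 on day 0. RUNX1 stood at 21.7 and 24.6 TPM on day 0, 22.5 and 28.8 on day 1, 25.2 and 30.5 on day 2, 25.0 and 33.5 on day 3, and 23.5 and 31.7 on day 4. It stood at 23.4 and 29.2 TPM on day 5, 20.3 and 36.4 on day 6, 12.4 and 16.6 on day 7, 8.42 and 18.1 on day 8, and 0.487 and 0.342 on day 12. Within each table set day 8 lay below day 6, but the groups of days 4 and 8 were -0.67 apart (SE 0.26, edgeR adjusted p = 0.0976; -0.90 and -0.52), which was not called. With a block for the table set this change of RUNX1 was called, at -0.69 (SE 0.17, edgeR adjusted p = 0.0077).

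IKZF1 stood at 91.9 and 78.1 TPM on day 0, 57.2 and 70.6 on day 1, 95.0 and 80.2 on day 2, 101 and 105 on day 3, and 111 and 95.2 on day 4. It stood at 112 and 112 TPM on day 5, 105 and 114 on day 6, 76.2 and 99.8 on day 7, 68.7 and 102 on day 8, and 8.94 and 5.25 on day 12. The TPM of day 8 spanned those of day 0. On counts scaled by the trimmed mean of M-values (TMM) IKZF1 was higher on day 8 than on day 0, by 0.58 (SE 0.17, edgeR adjusted p = 0.018; 0.28 and 0.88 within the table sets), but on log2(TPM + 1) the direction flipped to -0.02 (limma adjusted p = 0.97).

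LYL1 was the only measured member whose TPM did not drop below 50% of day 0 on any day. It stood at 259 and 163 TPM on day 0, 302 and 212 on day 1, 211 and 180 on day 2, 231 and 184 on day 3, and 217 and 190 on day 4. It stood at 216 and 196 TPM on day 5, 216 and 183 on day 6, 242 and 174 on day 7, 227 and 168 on day 8, and 221 and 216 on day 12. The separate-day library was above the all-days library on each day, and the ranges of days 0, 8 and 12 overlapped. On TMM-scaled counts the LYL1 log2 fold change of day 8 against day 0 was 0.52 (SE 0.32, edgeR adjusted p = 0.217).

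From day 4 to day 8, 4 of the 8 tested genes fell (SPI1, GATA2, MYB and MYC) and none rose, where 17.2% of all genes were called, 9.24% lower and 7.94% higher. The median of the 7 members above the floor was -0.93, against 0 over all genes. SPI1 changed most there, by -3.21 (SE 0.40, edgeR adjusted p = 0.00043; -2.34 and -3.87 within the table sets). This count was 1 without the day 4 library of the all-days table, where 4.09% of all genes were called, and 1 without the day 8 library of the separate-day tables, where 3.43% were. It was 0 when only the 4 libraries of these days were fitted, where 0.492% of all genes were called. With a block for the table set it was 5, with RUNX1 added, where 31.9% of all genes were called. From day 0 to day 8, 4 fell (the same 4) and IKZF1 rose, 5 of 8, where 37.1% of all genes were called, 19.4% lower and 17.7% higher. The count was 3 without the day 0 library of the all-days table, where 25.7% of all genes were called. With ERG at its bound, the median of the 8 was -0.78, against 0 over all genes.

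The separate-day libraries of days 7 and 8 had 18.5% and 17.5% of their counts on ribosomal RNA genes, against 2.55% and 2.34% in the all-days libraries and 1.03% to 4.08% in the other 16. In the all-days table alone, with 1 library a day and no test, the difference from day 6 to day 7 was -2.17 for SPI1, -1.38 for GATA2, -1.02 for MYB, -0.72 for MYC and -0.81 for RUNX1 on the log2 scale. The separate-day values were -2.26, -1.30, -1.18, -0.79 and -0.41. The part of the ribosomal share in these values was not tested. Each of the last 4 had an unadjusted p under 0.05 in the fit and none was called after adjustment (edgeR adjusted p = 0.0771 for GATA2 and 0.0959 for MYB). With a block for the table set all 5 were called, GATA2 at edgeR adjusted p = 0.00179 and RUNX1 at 0.0288, where 13.5% of all genes were. The block treats the separate-day libraries alike, though those of days 6 and 7 stand in different tables. It therefore cannot remove a difference between these tables, such as the ribosomal share. A contrast of days 7 and 8 with days 4 to 6 was added after the values had been seen. In it the same 5 fell, of 8 tested, from -2.64 for SPI1 to -0.62 for RUNX1 (SE 0.17, edgeR adjusted p = 0.0149), where 32.7% of all genes were called and 17.1% were lower. LYL1 was not called in it (edgeR adjusted p = 0.125). The block for the table set added LYL1, higher by 0.40 (SE 0.13, edgeR adjusted p = 0.0267), where 45% of all genes were called.

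Over the 9 steps from one sampled day to the next, 7 changes of a member were called: SPI1 from day 6 to day 7 and 6 from day 8 to day 12. None was called in the other 7 steps, in which edgeR called 0.393% of all genes from day 0 to day 1, 0.00596% from day 1 to day 2 and 0.0298% from day 2 to day 3. The same count of 7 was 9 with edgeR's exact test and 10 with DESeq2, while the share called of all genes over the 9 steps went from 6.69% to 7.41% and 7.94%. At an unadjusted p under 0.05 there were 2 members from day 1 to day 2 (SPI1 and IKZF1) and 1 from day 2 to day 3 (SPI1). By the first day from which the mean stayed under 50% of day 0, a level chosen after values had been seen, the order was SPI1 on day 2, then GATA2 on day 3 in TPM and day 5 in TMM-scaled CPM. MYB followed on day 7, MYC on day 7 in TPM and day 12 in CPM, and RUNX1 and IKZF1 on day 12. SPI1 came before GATA2 in CPM within each table set, on day 2 and day 4 in the separate-day and on day 3 and day 7 in the all-days libraries. GATA2 did not come before MYB in both: MYB passed 50% on day 5 in the separate-day libraries and on day 7, with GATA2, in the all-days libraries. The mean TMM-scaled CPM left on day 8 was 1.84% for SPI1, 20.02% for GATA2, 26.9% for MYB, 51.3% for MYC, 82.3% for RUNX1, 149% for IKZF1 and 143% for LYL1. GATA2 and MYB, neighbours in this order, overlapped between the table sets (18.3% and 23.02% against 16.0% and 38.8%), and so did IKZF1 and LYL1.

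Between day 8 and day 12, 4 of the 8 tested members fell and 2 rose on TMM-scaled counts. Of all genes 33.4% were lower and 23.8% higher. MYB fell by 5.62 on the log2 scale (SE 0.42, edgeR adjusted p = 1.06e-07; -4.71 and -6.30 within the table sets). MYC fell by 3.40 (SE 0.29, edgeR adjusted p = 3.48e-07; -2.89 and -3.79). RUNX1 fell by 3.34 (SE 0.30, edgeR adjusted p = 5e-07; -2.82 and -3.74) and IKZF1 by 2.14 (SE 0.18, edgeR adjusted p = 2.86e-07; -1.81 and -2.49). For each of these 4 both day 12 libraries lay below both day 8 libraries.

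Of the 8 tested members 6 were called there, where 57.2% of all genes were, 33.4% lower and 23.8% higher; the median of the 7 above the floor was -2.14 and that of all genes -0.20. SPI1 rose by 2.60 (SE 0.40, edgeR adjusted p = 8.16e-05), from 22 and 11 counts to 54 and 56, which was 11.3% of day 0 in TMM-scaled CPM (11.5% on day 6) and 2.68% in TPM (10.03% on day 6); on log2(TPM + 1) the change was 0.52 (limma adjusted p = 0.13). The LYL1 value depended on the scaling: it was higher by 1.58 on TMM-scaled counts (SE 0.32, edgeR adjusted p = 0.000893; 1.07 and 2.14) and by 0.16 on log2(TPM + 1) (limma adjusted p = 0.608). GATA2 was -0.38 on counts (SE 0.38, edgeR adjusted p = 0.424) and -1.65 on log2(TPM + 1) (limma adjusted p = 0.000752). The 10 globin genes took 28.2% and 33.7% of the counts on day 12, from 9.85% and 8.49% on day 8. On log2(TPM + 1) the median of all genes moved to -0.68, and the share of higher genes among those called from 41.6% to 13.5%. That share moved from 47.7% to 15.5% for day 8 against day 0, where the median of all genes became -0.34, from 46.2% to 12.2% for day 8 against day 4, and from 55.5% to 20.5% for day 4 against day 0.

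**Figure D2:**
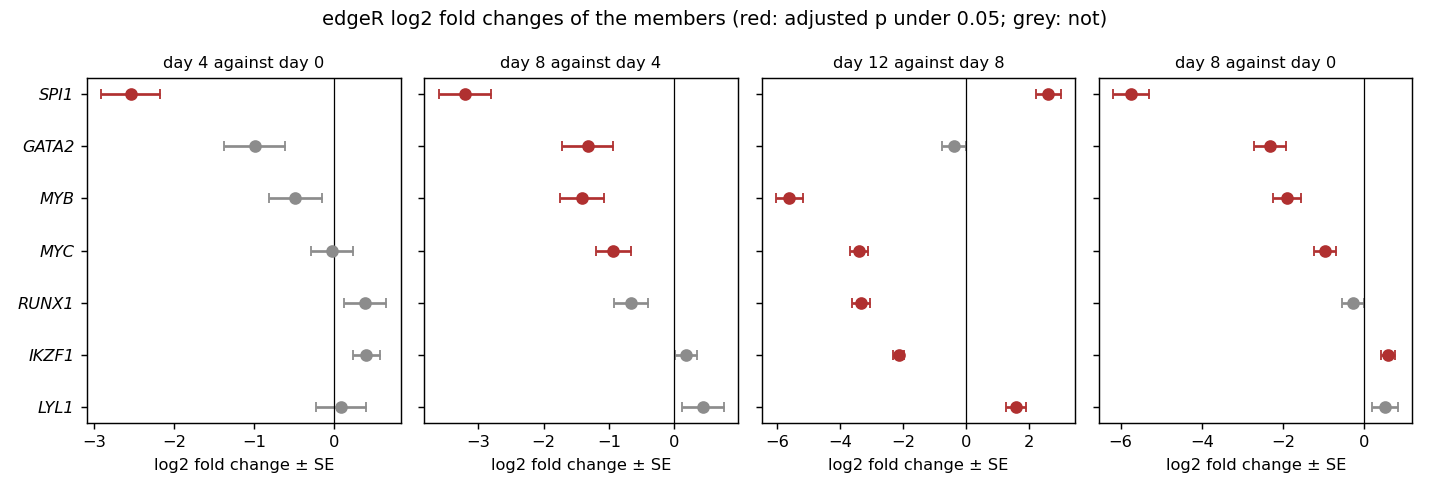
Log2 fold change with its standard error (x) of the 7 measured genes (y) in 4 comparisons of days, from the edgeR fit of 20 libraries; red points had an adjusted p under 0.05. From day 4 to day 8 the red points are SPI1, GATA2, MYB and MYC, and from day 8 to day 12 MYB, at -5.62, is furthest to the left while SPI1 and LYL1 are to the right.

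GATA2 and RUNX1 each have a distal and a proximal start, and the estimated mix of transcripts differed between days. GATA2 has 3 RefSeq transcripts in the tables, of which NM_032638 begins at the distal start, the one known from blood-forming cells. It held 75.9% and 61.3% of GATA2 TPM on day 0, 45.1% and 37.8% on day 2, 21.3% and 20.1% on day 3, 56.1% and 26.0% on day 4, 53.8% and 50.8% on day 5 and 40.1% and 38.5% on day 6. It held 22.9% and 6.21% on day 7, 6.34% and 0.284% on day 8, and 0.68% and 0% on day 12. Both libraries of day 8 were below those of each day to day 6. In level the distal transcript went from 160 and 80.2 TPM on day 0 to 1.47 and 0.0590 TPM on day 8 (185 and 6 counts), and the 2 proximal ones from 50.9 and 50.6 TPM to 21.7 and 20.7 TPM. The 0 counts in the all-days library of day 12 allow up to 3 counts, or 0.298% of the counts of GATA2.

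RUNX1 has 11 transcripts, 7 from the distal start and 4 from others. The distal share was 56.0% and 48.0% on day 0, 57.8% and 47.3% on day 4, 56.1% and 57.4% on day 6, and 60.4% and 62.6% on day 8. On day 12 it was 5.90% and 1.38%, from 7 and 2 of 157 and 133 counts. Up to day 8 the distal share of RUNX1 lay between 39.7% and 70.1%. How the program divided reads shared by transcripts is an estimate, no test was made, and its part in these shares was not tested. LYL1 and MEIS1 have 1 transcript each, and of the 2 of MYC NM_002467 held 66.0% to 85.0% on days 0, 8 and 12.

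**Figure D3:**
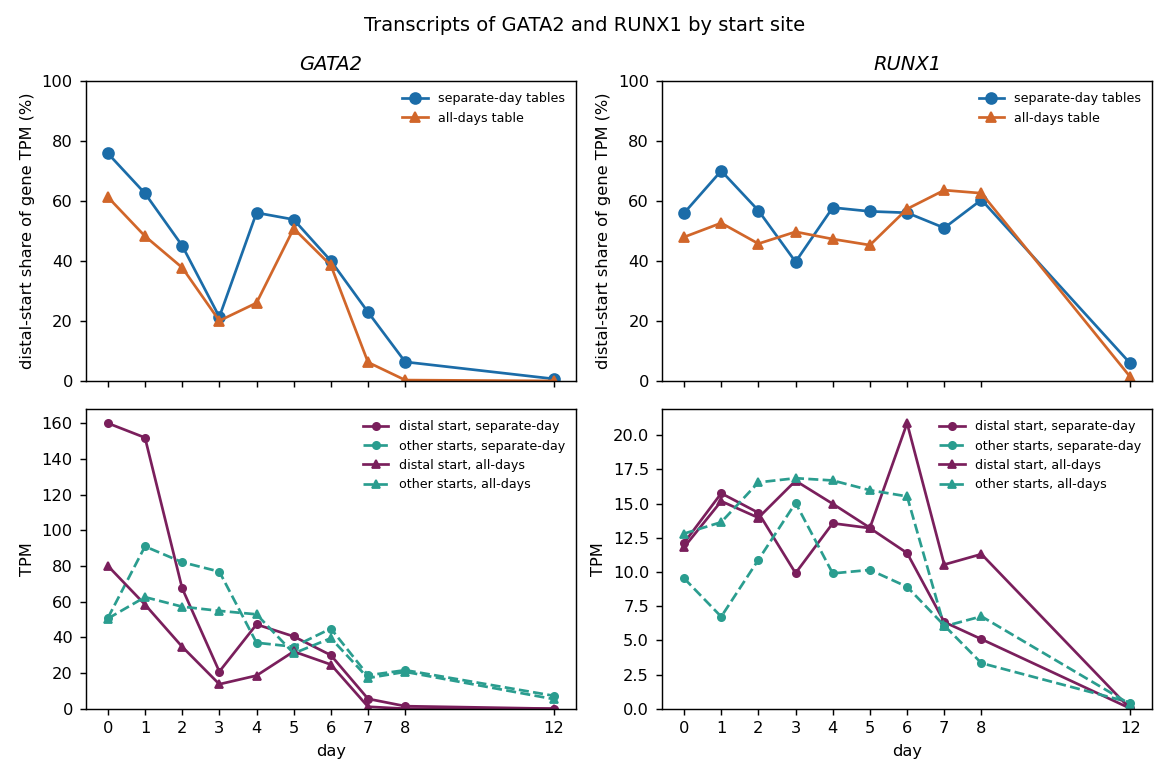
Upper panels, share of the gene's TPM from distal-start transcripts (y, %) by day (x); lower panels, level in TPM of distal-start and other transcripts; circles are separate-day libraries and triangles all-days libraries. The GATA2 share was 75.9% and 61.3% on day 0 and 6.34% and 0.284% on day 8, and that of RUNX1 60.4% and 62.6% on day 8 and 5.90% and 1.38% on day 12.

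The complex partners of the members, cofactors included, moved in more than 1 direction. Of 15 complex partners 13 were tested and, from day 0 to day 8, 6 rose and 1 fell (median 0.48), against 17.7% of all genes higher and 19.4% lower. The 1 that fell was CBFB, the partner that RUNX proteins need for stable DNA binding: 46.1 and 47.2 TPM on day 0, 11.3 and 8.89 on day 4, 1.46 and 0.658 on day 8 and 6.69 and 2.89 on day 12. CBFB changed by -4.79 to day 8 (SE 0.43, edgeR adjusted p = 4.63e-06), while RUNX1 changed by -0.28 (SE 0.26, edgeR adjusted p = 0.428). TAL1, which shares the complex with LMO2, LDB1 and GATA factors, rose by 1.75 (SE 0.20, edgeR adjusted p = 3.51e-05), from 63.2 and 80.6 TPM to 170 and 138 TPM. LMO2, the bridge of that complex, stood at 243 and 230 TPM on day 0 and 139 and 235 TPM on day 8. On TMM-scaled counts its change was 0.23 (edgeR adjusted p = 0.355). LMO2 then fell to 12.7 and 9.35 TPM on day 12, a log2 change of -2.58 (SE 0.20, edgeR adjusted p = 1.49e-07). Of the MEIS1 partners, PBX2 and PBX3 rose to day 8 and HOXA9 was at 0 TPM in the libraries of days 0, 4, 8 and 12.

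Of 15 tested paralogs of the members 7 fell and 2 rose from day 0 to day 8 (median -1.19), where 19.4% of all genes were lower and 17.7% higher. IKZF2 (Helios) went from 10.5 and 6.29 TPM on day 0 to 0.154 and 0.244 on day 4, a change of -4.90 (SE 0.54, edgeR adjusted p = 0.000231). RUNX2, a RUNX family factor of bone, went from 318 and 692 counts on day 0 to 2 and 0 on day 8 and was at least 123-fold lower, against 3 counts a library. RUNX3, IKZF3, ETS2, ELF1 and GABPA fell as well. MYBL2, the MYB relative tied to the cell cycle, rose by 0.96 to day 8 (SE 0.14, edgeR adjusted p = 0.000235), from 179 and 217 to 246 and 261 TPM. It then fell by 6.13 to 1.65 and 1.05 TPM on day 12 (SE 0.18, edgeR adjusted p = 7.44e-11).

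MYC works within a network in which the MXD proteins and MXI1 compete for MAX. Of 10 tested members of that network 4 rose and 2 fell from day 0 to day 8 (median 0.52), against 17.7% of all genes higher and 19.4% lower. MXD3 rose by 3.27 (SE 0.46, edgeR adjusted p = 0.000139), from 10.3 and 10.8 to 82.2 and 53.2 TPM. MXI1 rose by 2.36 (SE 0.35, edgeR adjusted p = 0.000214), from 32.8 and 36.1 to 129 and 99.2 TPM, and to 263 and 189 TPM on day 12. MAX itself fell by 0.95 (SE 0.23, edgeR adjusted p = 0.00649), from 73.8 and 61.9 to 22.4 and 23.8 TPM. Of 30 genes of ribosome biogenesis and growth known as MYC targets, 23 fell and none rose from day 0 to day 8 (median -1.14), and 20 fell and none rose from day 4 to day 8 (median -1.03), where 9.24% of all genes were lower. To day 4, 1 of the 30 was lower, where 2.35% of all genes were. Among them the nucleolar proteins NPM1 and NCL changed by -1.53 (SE 0.27, edgeR adjusted p = 0.000706) and -1.48 (SE 0.30, edgeR adjusted p = 0.00208) to day 8. APEX1 stood at -0.12 (edgeR adjusted p = 0.544).

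Of 15 other stem and progenitor regulators 10 were tested, of which 2 fell and 2 rose to day 8 (median -0.36), a share near that of all genes (19.4% lower and 17.7% higher). KIT, the SCF receptor, went from 349 and 305 TPM on day 0 to 96.5 and 113 on day 4 and 8.14 and 38.7 on day 8, by -3.29 (SE 0.61, edgeR adjusted p = 0.00107). HHEX, a homeobox factor of early blood cells, went from 133 and 75.8 to 3.40 and 1.54 TPM, by -4.74 (SE 0.64, edgeR adjusted p = 0.000109). CEBPB rose by 3.31 (SE 0.87, edgeR adjusted p = 0.00967). All 10 erythroid transcription factors rose to day 8 (median 1.60). GATA1, which takes over GATA2 sites, went from 209 and 216 to 273 and 280 TPM (0.99, SE 0.13, edgeR adjusted p = 0.000105). GATA2 stood at 211 and 131 TPM on day 0 and at 23.1 and 20.8 TPM on day 8.

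Of 9 tested genes next to or antisense to the members, 4 fell and 1 rose to day 8, where 19.4% of all genes were lower and 17.7% higher. HBS1L, beside MYB, changed by -0.57 (SE 0.15, edgeR adjusted p = 0.00949) where MYB changed by -1.90. GATA2-AS1, antisense to GATA2, stood at 11.7 and 8.23 TPM on day 0 and 10.1 and 6.84 TPM on day 8. On TMM-scaled counts its change was 0.38 (edgeR adjusted p = 0.635), so the direction differed between the scales. The libraries are stranded, but whether the counting used strand is not given in the sources used here.

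The genes most like each member over the 20 libraries were found by Pearson's r of log2(TPM + 1) among 11899 genes with a mean of at least 1 TPM. For MYB these were UMPS, NME2 and PPA1 (r = 0.999, 0.998 and 0.998), and for MYC ATIC, EXOSC2 and WDR5 (0.999, 0.999 and 0.998). For SPI1 they were SH3BP1, VIM and LITAF (0.989, 0.989 and 0.986), and for GATA2 CST3, FXYD5 and ITM2A (0.990, 0.988 and 0.987). For RUNX1 they were GEMIN2, AARS2 and KAT14 (0.997, 0.996 and 0.995) and for IKZF1 APOL4, ZNF184 and SMC3 (0.995, 0.994 and 0.992). LYL1 had no close match, with TRAPPC5 at 0.875. The libraries share days, depth and globin content, so these values describe shape over time only.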

How the data were processed

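The authors made stranded poly(A) libraries of HUDEP-2 cells, used Trimmomatic 0.38 for trimming, HISAT2 2.1.0 for alignment to hg38 and StringTie 2.1.3b for abundance, per the labels and the study's methods. They deposited raw read counts, FPKM and TPM (scaled to the same total in each library) for 170322 RefSeq transcripts; FPKM were not used here. Of the per-library columns 40 were read and 23 were not used, among them a further set of day 0 columns, from the table of day 12; which day 0 sets are the deposited samples is not given in the sources used here. Counts were summed by gene symbol and fitted with edgeR 4.0.16 (filterByExpr, TMM, glmQLFit, glmQLFTest), all 20 libraries in one fit, in R 4.3.3. P-values were adjusted by Benjamini-Hochberg over 16784 genes with a threshold of 0.05; the SE is the absolute log2 fold change over the square root of F. Within-set differences used log2 CPM. Alternatives included DESeq2 1.42.0 and limma 3.58.1 on log2(TPM + 1). The code was tested on simulated counts. The 2 libraries of a day differed beyond counting noise in 65.3% to 78.0% of genes with at least 20 counts, where 5% is expected from counting noise alone. This does not say whether they came from separate cultures. The members and gene lists, all of whose genes could be named, were chosen with earlier results of these data known.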

Additional observations from a re-analysis of the deposited data

How the results depend on the processing

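No paired analysis was possible because a column gives its day and no number of a replicate to pair by. The table set was used as a block in its place. It holds the separate-day tables as a single set and cannot remove differences between them, which go with the day. Of the 7 genes called over the days, LYL1 was not called with limma on log2(TPM + 1) or log2(TPM + 0.1) (adjusted p = 0.927 and 0.923); the other 6 were called with these, and all 7 with DESeq2, the other scalings and filters, the block and each library left out. With a block for the table set, the members called were 2 for day 4 against day 0 (1 without it), 5 for day 8 against day 4 (4 without it, RUNX1 being added) and the called steps between days 11 (7 without it). The share of all genes called also rose, from 5.28% to 14.3%, from 17.2% to 31.9% and from 6.69% to 8.95%. With only the libraries of the 2 days compared, 0 were called for day 8 against day 4 (4 in the fit of all days) and 3 for day 8 against day 0 (5), where 0.492% and 25.1% of all genes were called (17.2% and 37.1%). Leaving out a library in turn gave 1 to 4 for day 8 against day 4, 3 to 5 for day 8 against day 0, and 6 to 8 steps, with 3.43% to 20.2%, 20.3% to 32.9% and 5.55% to 6.29% of all genes called; the lone library of a day was then assumed to vary like the others. Day 12 against day 8 gave 6 in each of these, and 5 or 6 under the other alternatives.

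Directions that turned were of changes not called, except for IKZF1 from day 0 to day 8. On log2(TPM + 1) and log2(TPM + 0.1) these were IKZF1 for day 8 against day 0 (-0.017 in both) and day 4 (-0.29 in both), and LYL1 for day 4 against day 0 (-0.015 in both), day 8 against day 4 (-0.057 in both) and day 8 against day 0 (-0.073 in both). In the separate-day tables alone they were LYL1 for day 4 against day 0 (-0.15) and IKZF1 for day 8 against day 4 (-0.070), and in the all-days table alone MYC for day 4 against day 0 (0.043) and RUNX1 for day 8 against day 0 (0.0078). Without single libraries MYC ran from -0.24 to 0.16 and LYL1 from -0.24 to 0.51 for day 4 against day 0, and RUNX1 from -0.73 to 0.067 for day 8 against day 0. ERG for day 4 against day 0 ran from -5.46 to 3.51, the latter without the day 0 library that held its 13 counts. The cause was not tested. Of 506 alternative values of single members, 453 kept direction and call or moved by less than the spread, 21 lost the call, 7 gained it, 5 moved by more than the spread and 20 reversed. Among these, a value of a table set alone was judged against the gap between the 2 sets themselves. Lying within that gap was nearly fixed in advance and does not show that the sets agreed. With 2 libraries a day and at most 56 counts of SPI1 in a library of days 7 to 12, its late values rest on few counts.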
